A study of Mus musculus with 8 samples.

Results

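Cycling B cell precursors were the cells of the periosteal digest that carried RNA of the B cell receptor chains and of 2 proliferation genes at the same time. A cell was counted when it had at least 2 Cd79a and 1 Cd79b UMIs, at least 2 UMIs of Mki67 and Top2a together, and under 2% of its UMIs from S100a8 and S100a9. A UMI is a molecular tag, so each count is 1 captured RNA molecule. There were 271 such cells among 12253 kept cells, 133 of 6029 in the normal diet (ND) library and 138 of 6224 in the high-fat diet (HFD) library. These 4 conditions were set with the measured counts in view, so the levels of these genes describe the choice and are not a result. Vpreb1, Vpreb2, Vpreb3 and Igll1 were not among them.

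The C57BL/6J mice were male and 16 weeks old, and had been fed ND, or HFD with 60% of calories from fat, for 12 weeks from 4 weeks of age. Cells of the periosteum, the membrane that covers bone, were released from left femurs and tibias by collagenase and dispase and captured in droplets. The labels list 4 samples per diet, but the counts come as 1 pooled library per diet with no map from cells to mice. Every comparison therefore sets 1 library against the other without a test, and the 95% intervals given are exact and cover counting error only. The ND library held 48558889 UMIs in 6314 barcodes and the HFD library 49940976 in 6636. The libraries shared 15 barcodes, and no cycling B cell precursor was among them.

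B cell precursors normally arise in the bone marrow. A pro-B cell cuts and joins its heavy chain gene segments with the Rag1 and Rag2 recombinase while terminal transferase (Dntt) adds bases at the joints. A finished heavy chain pairs with the surrogate light chain, made of the Vpreb and Igll1 (lambda 5) proteins, and with Cd79a and Cd79b to form the pre-B cell receptor, whose signal drives several divisions. The surrogate light chain genes are then shut off, the cell leaves the cycle, and the kappa or lambda light chain genes are recombined.

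The genes that the results turn on lie on several chromosomes of GRCm38. Igll1 spans chr16:16860671-16863985 (minus strand) and its partner Vpreb1 chr16:16868403-16870843 (minus strand), with Vpreb2 at chr16:17980428-17981273 (plus strand). Over the 429 coding bases Vpreb1 and Vpreb2 are 97.9% identical, and over the last 300 bases of their transcripts 96.0%, so that molecules of one may be counted to the other. Their sum was used for that reason. Dntt lies at chr19:41029275-41059525 (plus strand) and the kappa constant segment Igkc at chr6:70726435-70726966 (plus strand).

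Promoter sequences of RefSeq (GRCm38.p6) are shown for 1 surrogate light chain gene and for 2 genes of mitosis, since these groups set the cells apart below. Igll1 is printed with its match to CCCNNGGG, the core bound by the B lineage factor Ebf1, in capitals. Ccnb2 (cyclin B2) and Kif11 (a spindle motor) are printed with matches to CCAAT, the box bound by NF-Y, and to TTTGAA, the cell cycle homology element of late cell cycle genes, in capitals. Matches were taken on both strands, each sequence reads 5′ to 3′ along its gene and ends just before the annotated start, and none overlaps an annotated exon. The windows are chr16:16863986-16864235 (minus strand, 250 bases), chr9:70421555-70421754 (minus strand, 200 bases) and chr19:37376182-37376381 (plus strand, 200 bases).
Igll1: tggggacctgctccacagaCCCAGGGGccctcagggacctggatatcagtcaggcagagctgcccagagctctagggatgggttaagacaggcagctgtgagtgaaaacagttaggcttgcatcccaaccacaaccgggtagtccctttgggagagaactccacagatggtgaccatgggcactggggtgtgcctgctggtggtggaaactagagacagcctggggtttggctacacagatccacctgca
Ccnb2: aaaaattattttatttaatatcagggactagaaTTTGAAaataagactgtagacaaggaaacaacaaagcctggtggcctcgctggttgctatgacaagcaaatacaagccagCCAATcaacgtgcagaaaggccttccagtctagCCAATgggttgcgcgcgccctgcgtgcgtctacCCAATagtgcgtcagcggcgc
Kif11: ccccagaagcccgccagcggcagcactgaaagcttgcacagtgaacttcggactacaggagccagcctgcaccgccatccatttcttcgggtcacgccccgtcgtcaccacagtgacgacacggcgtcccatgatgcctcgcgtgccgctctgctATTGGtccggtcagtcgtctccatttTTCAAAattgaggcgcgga

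Over windows of 300 bases (250 before to 50 after the start), TTTGAA was found in 30 of 44 matched promoters of a list of 50 G2 and M phase genes (68.2%), against 5 of 31 for the S phase list (16.1%) and 18.1% of all 27025 promoters. CCAAT was found in 33 of the 44 (75.0%), in 22 of the 31 (71.0%) and in 37.9% of all promoters. The mitotic list thus stood apart from the S phase list by TTTGAA and not by CCAAT. CCCNNGGG was found in 7 of 26 matched promoters of the pre-B receptor and B lineage factor lists (26.9%) and in 13.4% of all promoters. The CCAAT and TTTGAA letters do not overlap each other, and a match is a description of the sequence only.

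The marker genes given for these cells were present. Vpreb3, a partner of nascent receptor chains in B cell precursors, had a UMI in 130 of 133 ND and 134 of 138 HFD cells (lowest 0, median 29 and highest 96 UMIs in ND; 0, 31 and 105 in HFD). Vpreb1 had one in 66 ND and 69 HFD cells, with a highest count of 59 in ND and 90 in HFD, so that this marker divided the cells nearly evenly. Every cell had Ighm, the mu heavy chain (median 28 UMIs in ND and 29 in HFD), and every cell had Ebf1 (median 22 in both). Pax5, the B lineage commitment factor, was detected in 106 and 109 cells, and the IL-7 receptor Il7r in 97 and 103.

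Several markers of antigen-driven B cells were at or near 0. Rgs13 and Mef2b, genes of germinal centre B cells, had no UMI in any cell, which allows up to 2.26% of ND and 2.17% of HFD cells with a UMI (3 counts of the total). The plasma cell receptor Tnfrsf17 also had no UMI, and Jchain, which joins secreted antibodies, had one in 7 ND and 5 HFD cells with at most 2 UMIs a cell. Ighd, the delta chain of mature B cells, was found in 31 and 28 cells with at most 3 UMIs. Other genes of the plasma cell list were present. Mzb1, a chaperone of immunoglobulin assembly and the most abundant of the list, was found in 117 ND and 125 HFD cells, Xbp1 in 62 and 64, and Sdc1 in 27 and 32. The label of cycling B cell precursors was kept mainly on Vpreb3, found in 130 ND and 134 HFD cells, since Vpreb1 was found in only 66 and 69. Cells with little or no surrogate light chain RNA also carried kappa chain and class II RNA, as given below.

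The share of kept cells that were cycling B cell precursors was 2.21% in ND (95% interval 1.85 to 2.61) and 2.22% in HFD (1.87 to 2.61), so the diets did not differ beyond counting error. Of the cells that met the Cd79a, Cd79b and S100a8/S100a9 conditions, 133 of 1441 (9.23%, 7.79 to 10.8) were cycling in ND and 138 of 1389 (9.94%, 8.41 to 11.6) in HFD. The cycling cells were deep, with a median of 11214 UMIs and 3224 genes in ND and 11458 UMIs and 3182 genes in HFD. Non-cycling cells of the same Cd79 conditions had 3804 and 3775 UMIs, and a fixed count of Mki67 and Top2a is easier to reach in a deep cell.

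At the limits of the rule, 18 cells in each library had exactly 2 UMIs of Mki67 and Top2a, while 77 ND and 67 HFD cells had exactly 1 and stayed outside. The G2 and M phase list (50 genes without Mki67 and Top2a) summed to 4695 UMIs per 1000000 (UPM) in ND and 5102 in HFD cells just inside, and to 1938 and 2184 UPM just outside. The S phase list was 2999 UPM in ND and 1676 in HFD cells just inside, and 1103 and 1246 just outside, a smaller step in HFD. For Cd79a, 2 ND and 0 HFD cells had exactly 2 UMIs, and 9 and 6 cells had 1. A further 58 ND and 62 HFD cells met the other conditions with no Cd79a UMI.

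Some cells inside the rule carried little other cell cycle RNA. In 11 ND cells (8.27%, 4.20 to 14.3) and 12 HFD cells (8.70%, 4.57 to 14.7) the S phase and G2 and M phase lists together made up under 0.5% of UMIs, as they did in 98.6% of ND and 97.1% of HFD resting B precursors. These cells had a median of 2 Mki67 and Top2a UMIs in both libraries, against 19 in the other ND and 24 in the other HFD cells. They were shallow, with 4445 UMIs in ND and 4576 in HFD. Except for 1 HFD cell with Dntt, all of them lay in the group with neither Dntt nor surrogate light chain described next.

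The cycling precursors fell into 3 states by 2 limits drawn after the counts were seen, so the levels that follow are descriptions. Cells with at least 2 Dntt UMIs (Dntt cells) numbered 32 in ND (24.1%, 17.1 to 32.2) and 28 in HFD (20.3%, 13.9 to 28.0). Cells with fewer than 2 Dntt UMIs and at least 5 UMIs of Vpreb1, Vpreb2 and Igll1 per 10000 (surrogate light chain cells) numbered 20 in ND (15.04%, 9.43 to 22.3) and 26 in HFD (18.8%, 12.7 to 26.4). The remaining 81 ND (60.9%, 52.1 to 69.2) and 84 HFD cells (60.9%, 52.2 to 69.1) had neither. No share differed between diets beyond its interval. The limit on the surrogate light chain cut through a continuum, with 13 ND and 17 HFD cells between 2.5 and 10 UMIs per 10000.

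**Figure D1:**
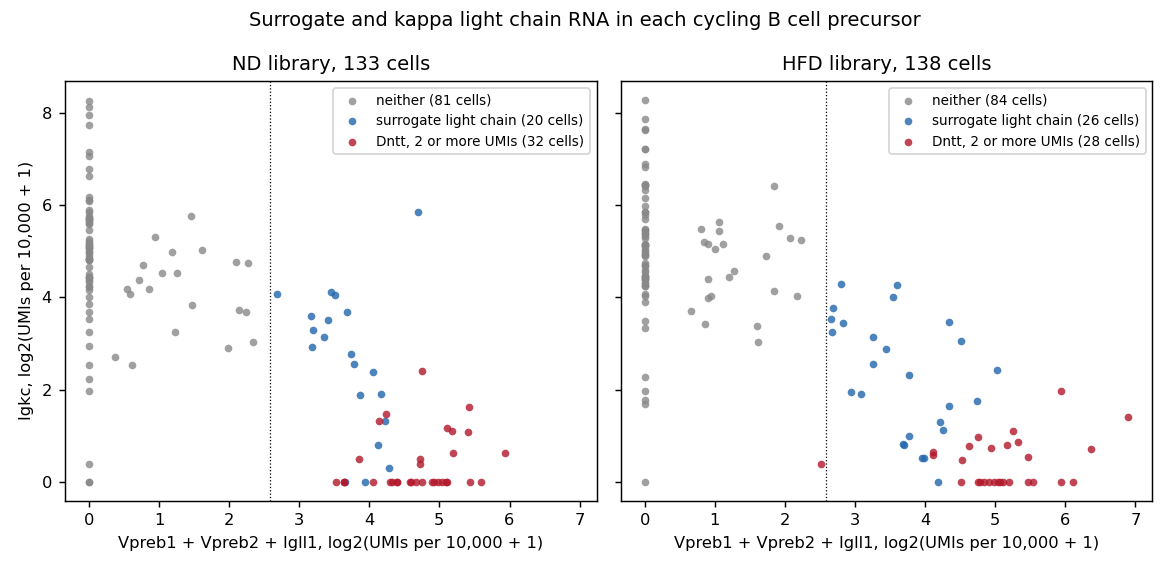
Each point is 1 cycling B cell precursor of the ND (left, 133 cells) or HFD library (right, 138 cells). The x axis gives Vpreb1, Vpreb2 and Igll1 UMIs and the y axis Igkc UMIs, both as log2 of UMIs per 10000 plus 1, with the dotted line at the limit of 5 per 10000. Dntt cells (red) lie at the lower right, cells with neither (grey) at the upper left, and surrogate light chain cells (blue) run between them.

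The surrogate light chain genes were highest in Dntt cells. Vpreb1 stood at 1213 UPM in ND (1136 to 1295) and 1730 in HFD Dntt cells (1621 to 1844), at 574 and 637 in surrogate light chain cells, and at 33.7 and 19.6 in the rest. Igll1 followed the same order, with 1113, 715 and 28.6 UPM in ND and 1293, 683 and 29.9 in HFD. Since Vpreb1, Vpreb2 and Igll1 drew the line between the last groups, only the position of the Dntt cells is free of the rule. Vpreb3 did not follow them. It stood at 1835, 1185 and 2078 UPM in ND and at 2347, 1505 and 2086 in HFD, lowest in the surrogate light chain cells of both libraries.

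Rag1, of the recombinase, was higher at both ends than in the middle. It stood at 46.8 UPM in ND Dntt cells (32.6 to 65.1) and 80.7 in HFD (58.7 to 108), and was detected in 14 of 32 and 13 of 28 of them. In surrogate light chain cells it had 1 UMI in ND and 4 in HFD (1.88 and 4.66 UPM). In cells with neither it was 16.3 UPM in ND (9.33 to 26.5) and 30.9 in HFD (20.8 to 44.1), so it was lowest in the middle group of both libraries, also without cells that carried RNA of another cell class, although the intervals of the middle group and cells with neither overlapped in ND. Its partner Rag2 was also lowest in the middle group, at 13.4, 7.502 and 19.4 UPM in ND and 34.9, 5.83 and 10.3 in HFD, as was Xrcc6 (Ku70), at 103, 80.6 and 183 UPM and 183, 105 and 236, with intervals that overlapped in part. Lig4, the ligase of end joining, was so in HFD only (9.36, 13.1 and 28.6 UPM in ND and 31.2, 23.3 and 35.0 in HFD), and Xrcc5 (Ku80), which binds broken ends, was 21.4, 11.3 and 7.14 UPM in ND and 14.7, 22.1 and 6.18 in HFD.

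Kappa light chain RNA ran the other way. Igkc stood at 29.4 UPM in ND Dntt cells (18.4 to 44.6), 598 in surrogate light chain cells (534 to 668) and 2800 in cells with neither (2696 to 2907). In HFD the levels were 34.9 (21.0 to 54.4), 424 (382 to 470) and 3598 (3479 to 3719). The 3 groups did not overlap in either library by these intervals. Without the cells poor in cell cycle RNA, the cells with neither had 2253 UPM in ND and 3361 in HFD. Igkc RNA can be made from a kappa locus that has not been joined, so variable segments were counted too. Joints were not read, so neither these counts nor those of heavy chain segments below show whether a locus was joined. An Igkv gene with at least 2 UMIs was found in 18 of 81 ND cells with neither (22.2%, 13.7 to 32.8), 2 of 20 surrogate light chain cells and 0 of 32 Dntt cells, and in 9 of 84 (10.7%, 5.02 to 19.4), 2 of 26 and 0 of 28 in HFD.

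Heavy chain variable segments were found most often in Dntt cells. An Ighv gene reached 2 UMIs in 12 of 32 ND Dntt cells (37.5%, 21.1 to 56.3) and 8 of 28 HFD Dntt cells (28.6%, 13.2 to 48.7), against 0 of 20 and 1 of 26 surrogate light chain cells and 3 of 81 and 7 of 84 cells with neither (3.70%, 0.770 to 10.4, and 8.33%, 3.42 to 16.4). The intervals of Dntt cells and cells with neither overlapped in HFD. Of the 183 Ighv genes listed, Ighv1-23 and Ighv14-2 had the most UMIs in both libraries, 17 and 15 in ND and 14 and 16 in HFD. All of them except 1 Ighv14-2 UMI in HFD came from Dntt cells. The third was Ighv1-75 in ND with 8 UMIs and Ighv1-76 in HFD with 6. Ighm constant region RNA rose from 1105 UPM in Dntt cells to 2392 in cells with neither in ND, and from 1145 to 2714 in HFD.

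Among B lineage transcription factors, Erg and Lef1 marked the Dntt end. Erg, an ETS factor of early progenitors, was at 65.6 UPM in ND Dntt cells and 89.9 in HFD, against at most 4.08 UPM in the other groups. Lef1, a partner of beta-catenin, fell from 221 to 167 to 49.0 UPM across the groups in ND and from 345 to 171 to 48.4 in HFD. Tcf4 was 393 and 448 UPM in Dntt cells and 133 and 116 in cells with neither. Ikzf3 (Aiolos), which restrains pre-B cell division, moved the opposite way, at 1.34, 35.6 and 65.3 UPM in ND and 0 (up to 5.50), 60.6 and 81.3 in HFD. Irf4 (36.1, 105 and 170 UPM in ND), Spib (16.1, 50.6 and 193) and Bach2 (42.8, 93.8 and 202) rose in the same order in ND, and all 3 did so in HFD. Ebf1 was lowest in the middle group, with 1640, 1168 and 1578 UPM in ND and 2048, 1175 and 1598 in HFD. Pax5 was 155, 131 and 168 UPM in ND and 101, 156 and 158 in HFD, an order that differed between the libraries.

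The D cyclins Ccnd2 and Ccnd3 and the growth list were highest in the middle group of both libraries. The whole list of cyclins, kinases and inhibitors was lowest there in ND (3005, 2787 and 3013 UPM). In HFD it was highest there (2732, 3126 and 3062 UPM), with an interval that overlapped that of cells with neither. Ccnd2 (cyclin D2) stood at 133 UPM in ND surrogate light chain cells (104 to 168) and 200 in HFD (172 to 233), against 68.2 and 34.9 in Dntt cells and 58.1 and 40.2 in cells with neither. Ccnd3, the cyclin D that pre-B cells depend on, was 754 and 727 UPM there, against 621 and 405 in Dntt cells and 479 and 446 in cells with neither. Its partner Cdk6 was high in the first groups (227 and 203 UPM in ND, 185 and 256 in HFD) and low in the last (54.1 and 44.3). The list of Myc, growth and glycolysis genes summed to 9624 UPM in ND and 9257 in HFD surrogate light chain cells. It was 7540 and 6629 UPM in Dntt cells and 4082 and 4333 in cells with neither. Myc itself was not highest there, at 41.5, 30.0 and 35.7 UPM in ND and 12.8, 10.5 and 32.95 in HFD. Its intervals overlapped among all groups in ND. In HFD that of Dntt cells overlapped both others, and Myc had only 7 UMIs in Dntt and 9 in surrogate light chain cells. E2f2, a factor of S phase entry, was highest in cells with neither (137 and 138 UPM).

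Antigen presentation and surface genes of later stages were concentrated in the cells with neither. Cd74, the class II invariant chain, stood at 52.2, 71.3 and 1636 UPM in ND and 23.9, 79.2 and 2013 in HFD. The class II chain H2-Aa went from 24.1 to 412 UPM and from 14.7 to 559 between the end groups. Ms4a1 (CD20) had 0, 3 and 110 UMIs in ND and 1, 4 and 131 in HFD, and 22 of 81 and 21 of 84 cells with neither held them. In ND, Cd74 and Ms4a1 in these cells were 988 and 42.3 UPM without the cells poor in cell cycle RNA. Cd24a, a surface protein of dividing precursors, was highest in surrogate light chain cells (2417 UPM in ND and 2542 in HFD) and lowest in Dntt cells (912 and 1029). Ly6d was lowest in surrogate light chain cells (137 and 76.9 UPM) and highest in cells with neither (742 and 1201).

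**Figure D2:**
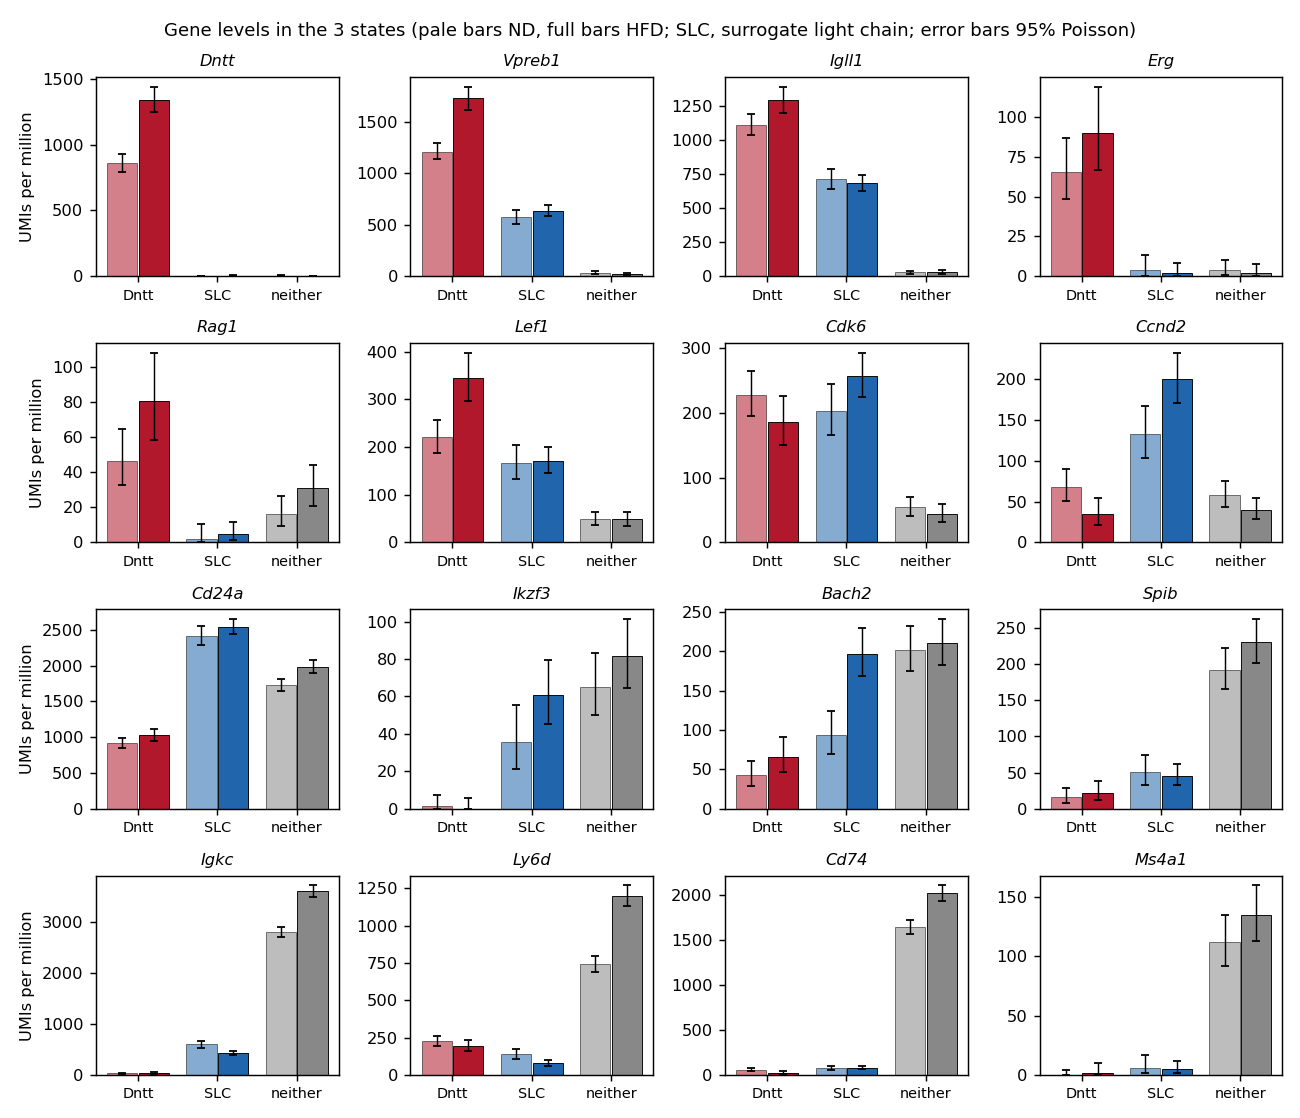
Summed levels in UMIs per 1000000 (y axis, linear from 0) of 16 genes in Dntt cells (red), surrogate light chain cells (SLC, blue) and cells with neither (grey), pale bars for ND and full bars for HFD, with exact 95% Poisson intervals. Dntt and Erg fall away after the red bars, Ccnd2 and Cd24a peak in the blue bars, and Igkc, Ly6d, Cd74 and Ms4a1 are highest in the grey bars of both libraries.

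Depth differed between the groups, with a median of 20776 UMIs in ND Dntt cells, 21918 in surrogate light chain cells and 10035 in cells with neither, and 17651, 25898 and 9886 in HFD. Its part in the gradients was not tested. Thinned to 2000 UMIs a cell, 12.1% of ND and 12.3% of HFD cells still counted as Dntt cells, against 24.1% and 20.3% unthinned. Surrogate light chain cells then made up 31.1% and 29.0%, against 15.04% and 18.8% unthinned. A single UMI meets the surrogate light chain limit at that depth. A Dntt cell that falls under the Dntt limit can also be counted as a surrogate light chain cell. The part of each in the shift was not tested.

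A surrogate light chain UMI was found in 73 of 133 ND (54.9%, 46.0 to 63.5) and 77 of 138 HFD cycling precursors (55.8%, 47.1 to 64.2). T cells (at least 2 UMIs of Cd3d, Cd3e and Cd3g, no Cd79a or Cd79b), a class that should lack these genes, had one in 1.95% of ND (0.721 to 4.21, median 6626 UMIs) and 4.29% of HFD cells (2.08 to 7.75, median 7136), and mesenchymal cells (at least 10 UMIs of Col1a1, Col1a2 and Dcn, no Ptprc, Cd79a or Cd79b) in 2.19% and 3.95% (medians 9990 and 9118). Thinned to 2000 UMIs, the shares were 43.2% and 41.3% in cycling precursors and 0.993% and 0.870% in T cells, so the signal stood far over the free RNA of the droplets at equal depth. Non-cycling Cd79 cells had a surrogate light chain UMI in 6.01% of ND (4.75 to 7.49) and 9.29% of HFD cells (7.70 to 11.1). Thinned, the shares were 5.01% (3.85 to 6.41) and 7.35% (5.92 to 9.01), whose intervals overlapped.

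The share of cells that met the proliferation rule differed among the 3 states. Over all cells that met the Cd79 conditions, 32 of 73 ND Dntt cells (43.8%, 32.2 to 56.0) and 28 of 87 HFD (32.2%, 22.6 to 43.1) were cycling. Among surrogate light chain cells the numbers were 20 of 39 (51.3%, 34.8 to 67.6) and 26 of 38 (68.4%, 51.4 to 82.5). Among cells with neither, 81 of 1329 (6.10%, 4.87 to 7.52) and 84 of 1264 (6.65%, 5.34 to 8.16) were. With every cell thinned to 2000 UMIs before the proliferation rule and the states kept, the shares were 27.8%, 21.1% and 4.32% in ND and 16.3%, 45.7% and 4.86% in HFD. In both libraries the first groups stayed over the last by their intervals.

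The place in the cell cycle was read from the S phase list (43 genes in the matrix) and the G2 and M phase list, each scaled to its own mean. More G2 and M than S phase RNA was found in 78 of 133 ND (58.6%, 49.8 to 67.1) and 73 of 138 HFD cells (52.9%, 44.2 to 61.5). By state the shares in ND were 43.8% of Dntt cells (26.4 to 62.3), 35.0% of surrogate light chain cells (15.4 to 59.2) and 70.4% of cells with neither (59.2 to 80.0). In HFD they were 64.3%, 38.5% and 53.6%, with intervals of 44.1 to 81.4, 20.2 to 59.4 and 42.4 to 64.5. The order of Dntt cells and cells with neither was thus not the same in both libraries. In each library the cells with neither included 11 that were poor in cell cycle RNA and were placed by few list UMIs. A rule on Mki67 and Top2a favours cells late in the cycle, so these shares do not describe all dividing precursors.

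**Figure D3:**
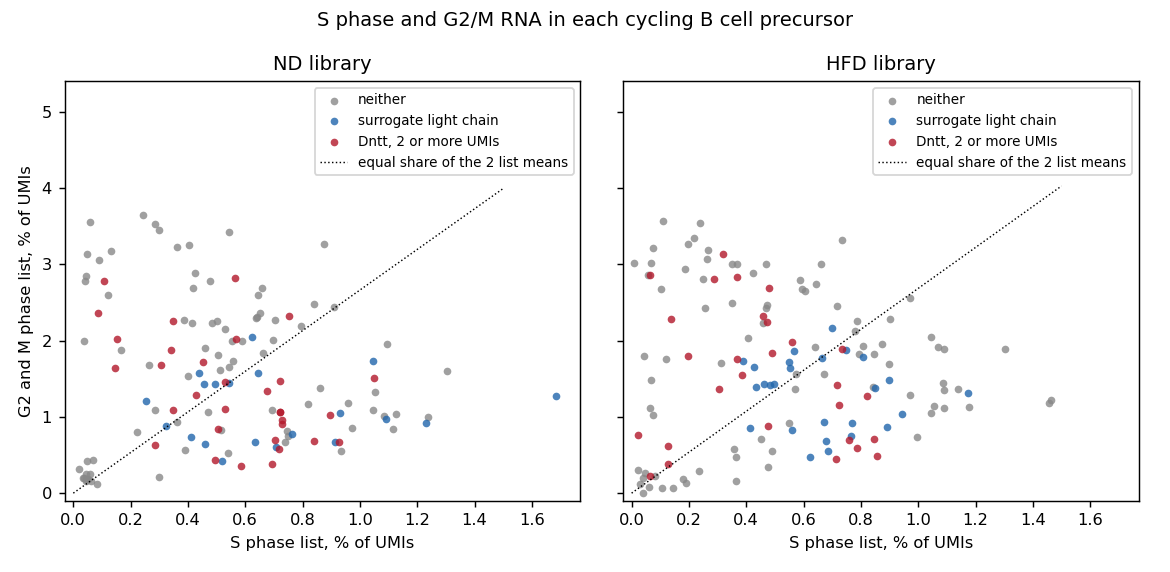
Each point is 1 cycling B cell precursor, with the S phase list on the x axis and the G2 and M phase list on the y axis, both as percent of the cell's UMIs, for Dntt cells (red), surrogate light chain cells (blue) and cells with neither (grey). Points over the dotted line hold more G2 and M than S phase RNA (78 ND and 73 HFD cells), and the cluster at the origin is the cells with under 0.5% of both lists, 11 in ND and 12 in HFD.

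Against resting B precursors, the cycling cells differed in what the rule used, and the contrast is given as a description. Resting B precursors met the Cd79 and S100 conditions with no Mki67, Top2a or Ighd UMI and at least 2 UMIs of Vpreb1, Vpreb3 and Igll1, and numbered 655 in ND and 657 in HFD. Of 7151 genes with at least 50 UMIs in each library over both cell sets, 764 (10.7%) were past 2-fold higher and 746 (10.4%) past 2-fold lower in cycling cells in both libraries. The cell cycle lists moved almost whole, with 41 of 41 S phase genes tested and 46 of 48 G2 and M phase genes past 2-fold higher. Beside Top2a and Mki67, the genes with the greatest rise among those with at least 200 UMIs in each library were Ccna2 (cyclin A2), Tpx2 and Kif11 of the spindle, Cdk1, Nusap1, Ube2c, Spc24, Cdca8, Pclaf, Esco2 and the histone genes Hist1h3c, Hist1h3b and Hist1h2af. Ccna2 stood at 222 UPM in ND and 267 in HFD cycling cells and at 1.13 and 0.743 in resting ones.

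Lower in cycling than in resting cells were genes of light chain and late B cell stages. Of the 15 with the greatest fall by the same limit, Ms4a1 went from 1521 to 49.98 UPM in ND and from 1336 to 57.3 in HFD, Cd74 from 11402 to 743 and from 10172 to 857, and Iglc2, a lambda constant segment, from 2456 to 60.1 and from 2206 to 130. Others were Iglc1, Iglc3, Tmem163, Rnase6, the adaptor Bank1, the cytokine Ltb, the small heat shock protein Hspb1, Lynx1, BE692007, Gm8369 and Gm20559. The class II list had 9 of 9 genes past 2-fold lower, the late pre-B and immature B list 8 of 10 and the mature B list 7 of 8. Of the 17 genes of pre-B receptor signalling, 16 were tested, none was higher and 9 were lower. Ccnd3 was one of 14 of 22 cyclins, kinases and inhibitors past 2-fold higher, at 591 against 143 UPM in ND and 538 against 127 in HFD.

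Between the diets, gene levels in the cycling precursors were close. Of 6942 genes with at least 50 UMIs over both libraries, 29 (0.418%) were past 2-fold higher and 101 (1.45%) past 2-fold lower in HFD, and the median log2 ratio of HFD over ND was 0.05, with 4035 genes over 0 and 2907 under it. In 13 of the 29 and 51 of the 101 genes, 1 cell held at least 15% of all UMIs. A gene near the minimum of 50 UMIs reaches that limit with few UMIs, and the share among all 6942 genes is not given.

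Some cycling precursors also held RNA of another cell class, 16 in ND and 8 in HFD, at a median of 28714 and 21730 UMIs. In ND, 8 cells had at least 10 Lyz2 UMIs, 4 at least 10 UMIs of Mpo, Elane and Prtn3, 3 at least 20 hemoglobin UMIs, and 1 at least 5 UMIs of the basophil genes Mcpt8 and Prss34. The other limits were 5 UMIs of C1qa and C1qb, 2 of Cd3d, Cd3e and Cd3g, 2 of Siglech and 10 of Prg4. The last was 20 of Col1a1, Col1a2 and Dcn. Cells over any limit were then left out, so lower levels of these genes and their lists without them follow from the choice. Without these cells 57 of the 101 lower and 17 of the 29 higher genes were still past 2-fold. The erythroid list was 6049 UPM in ND and 224 in HFD, led by Hbb-bs, and 193 and 237 UPM without them. The neutrophil list (9 genes, led by S100a9, none at 0) was 1778 and 1150 UPM with them and 789 and 774 without. The macrophage list (5 genes, led by Lyz2) was 581 and 448 UPM with them and 46.7 and 47.0 without, and the mesenchymal list (5 genes, led by Dcn) 216 and 251 with them and 10.4 and 26.5 without. T cell, endothelial, plasmacytoid dendritic and NK markers were at or under 104 UPM in both libraries.

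Of the 10 genes with the greatest fall in HFD among those with at least 200 UMIs, 6 belonged to those few cells. Prss34, a basophil protease, had 1757 UMIs in ND, 99.7% of them in 1 cell, and 3 in HFD, and Mcpt8 had 565, 99.3% of them in 1 cell, and 3. Hbb-bt, Hba-a1, Hbb-bs and Hba-a2 had log2 ratios of -6.48, -6.05, -6.04 and -5.55. After the other-class cells were left out, their ratios turned to 0.72, 0.93, 0.39 and 0.30. Those cells were picked in part by hemoglobin UMIs, so the loss of the fall follows from the choice. Hba-a1 and Hba-a2 are close copies, as are Hspa1a and Hspa1b, and their counts may be split between copies.

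The remaining 4 were genes of the stress response and of quiescence, and each was found in more ND than HFD cells. Hspa1a, the inducible heat shock protein 70, stood at 344 UPM in ND and 61.1 in HFD (log2 ratio -2.49, -2.76 to -2.24), in 49 and 12 cells. Its copy Hspa1b stood at 384 and 82.1 UPM (-2.22, -2.46 to -2.00), in 64 and 17 cells. Of their HFD UMIs, 38.6% and 47.7% lay in 1 cell each. Ppp1r15a (Gadd34), which ends the integrated stress response, was 222 UPM in 85 ND cells and 47.6 in 43 HFD cells (-2.22, -2.53 to -1.93). Klf2, a factor of quiescence and homing, was 1230 UPM in 116 ND cells and 324 in 103 HFD cells (-1.92, -2.04 to -1.81). Without other-class cells these ratios were -2.64, -2.30, -2.31 and -2.10. The fall was not particular to cycling cells, since the ratios in resting B precursors were -1.56, -1.27, -1.08 and -1.04.

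The immediate early list moved as a whole. All 15 genes were lower in HFD (2907 of 6942 among all genes), 7 of them past 2-fold (1.45% of all genes). Their median log2 ratio was -0.85, and their summed level was 5887 UPM in ND and 3639 in HFD (log2 ratio -0.69, -0.73 to -0.66). Beside the heat shock genes the falls past 2-fold were in Dusp1, a MAP kinase phosphatase (129 to 45.5 UPM), Klf6 (180 to 78.8), Jun (843 to 374), Egr1 (77.0 to 36.6) and the antiproliferative Btg2 (334 to 165). Jund, the most abundant, fell least (2280 to 2024 UPM). The fall was found in each state, from 4741 to 2958 UPM in Dntt cells, 3471 to 1546 in surrogate light chain cells and 8075 to 5870 in cells with neither. The erythroid list differed by state too, at 188.6 UPM in ND and 271.5 in HFD Dntt cells. It was 13377 and 233 UPM in surrogate light chain cells and 6533 and 189.5 in cells with neither. Over all states without other-class cells, the immediate early sum was 5749 UPM in ND and 3411 in HFD. The fall of the immediate early list was not particular to these cells. The same list was lower in HFD by log2 ratios of -0.62 in resting B precursors, -0.58 in non-cycling B cells with at least 2 Ighd UMIs and -1.37 in cycling neutrophil precursors (the same limit on Mki67 and Top2a, no Cd79a or Cd79b UMI and at least 2% of UMIs from S100a8 and S100a9).

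**Figure D4:**
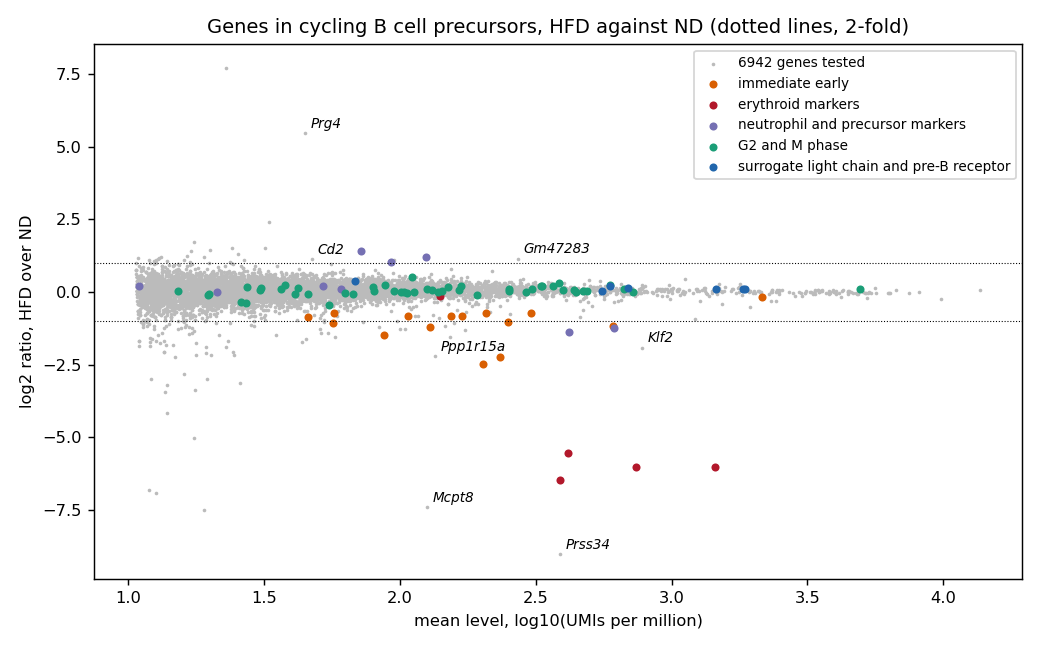
Each point is 1 of 6942 genes in cycling B cell precursors, with the mean level of both libraries on the x axis (log10 of UMIs per 1000000) and the log2 ratio of HFD over ND on the y axis, and dotted lines at 2-fold. Immediate early genes (orange) all lie under 0, the 4 hemoglobin genes (red) near -6, and the mitotic (green) and pre-B receptor genes (blue) lie between the lines.

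Glucocorticoid response genes were also lower on sum (475 to 377 UPM, log2 ratio -0.33, -0.46 to -0.20). Of 7 tested genes, 5 were under 0 (2907 of 6942 among all genes). Ddit4, an inhibitor of mTORC1, was past 2-fold lower (79.2 to 29.9 UPM), as were 1.45% of all genes. The sum was lower in resting B precursors too (-0.43). Cdkn1a (p21), an inhibitor of the cell cycle, was 146 and 81.3 UPM (-0.84, -1.11 to -0.58), and the same ratio was -0.83 in resting cells. Ccr7, a chemokine receptor, was 114 and 71.6 UPM (-0.67, -0.96 to -0.38) and -0.50 in resting cells.

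The receptor and cell cycle lists differed little in their sums. Among all 6942 genes 0.418% were past 2-fold higher and 1.45% lower in HFD. A count of 0 in lists as short as these is thus near the share over all genes. The 7 genes of the pre-B receptor list were all slightly higher in HFD (median log2 ratio 0.12, where 4035 of all 6942 genes were over 0) and none was past 2-fold, with Vpreb1 at 551 UPM in ND and 635 in HFD, Igll1 at 549 and 556, Vpreb3 at 1787 and 1936 and Ighm at 1751 and 1899. The S phase list had 0 of 43 genes past 2-fold in either direction (median log2 ratio 0.09), its summed ratio of 0.08 turning to -0.02 with cells thinned to 2000 UMIs or weighted equally, and the G2 and M phase list 0 of 50 (median 0.05). Hmgb2, a chromatin protein and the most abundant of the mitotic list, was 4778 UPM in ND and 5110 in HFD, Pcna, the sliding clamp of replication, 431 and 432, and Ube2c 723 and 722. The replication fork list (0 of 34) and the nucleotide synthesis list (0 of 21) had no gene past 2-fold either. The IL-7 receptor list summed to 1240 UPM in ND and 1180 in HFD, with Il7r at 169 and 184 UPM and none of 12 tested genes past 2-fold. Of the 12, 9 were under 0 (2907 of 6942 among all genes). The summed log2 ratio of this list, -0.072 (-0.148 to 0.004), turned to 0.079 thinned and 0.052 with all cells weighing the same.

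Resting cells differed more in the surrogate light chain than cycling ones did. Vpreb1 stood at 229 UPM in ND and 515 in HFD resting B precursors (log2 ratio 1.17), against a ratio of 0.21 (0.10 to 0.32) in cycling cells. Igll1 was 189 and 329 UPM (0.80) against 0.02 (-0.09 to 0.13), and Dntt 87.4 and 156 (0.84) against 0.12 (-0.04 to 0.27). Within the Dntt cells alone, cycling cells differed between the diets too, with Dntt at 859 UPM in ND (794 to 928) and 1339 in HFD (1244 to 1440) and Vpreb1 as given above. The early progenitor and pro-B list gave a log2 ratio of 0.65 in resting and 0.08 in cycling cells. With cycling cells thinned to 2000 UMIs their ratios were nearer to the resting ones, at 0.42 for Vpreb1, 0.18 for Igll1 and 0.30 for the list, and the list gave 0.20 with all cells weighing the same. The unthinned intervals did not overlap, but the difference was not tested over mice, and the resting cells were chosen partly on Vpreb1 and Igll1.

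Higher in HFD were genes of several kinds. Of the 10 greatest rises among genes with at least 200 UMIs, Prg4, Mpo, Prtn3 and Elane lay mostly in 1 cell each (87.1% to 94.7% of HFD UMIs), and without other-class cells Mpo and Prtn3 turned to -0.44 and -0.34 and Elane to 0.42. Prg4 stayed higher in HFD without them, at 3.17 (2 and 26 UMIs). These genes also picked the other-class cells, so the change in their ratios without those cells follows from the choice. Gm47283 was 169 UPM in 107 ND cells and 375 in 126 HFD cells (log2 ratio 1.15, 0.98 to 1.33), and its ratio in resting cells was 1.08. Cd2, an adhesion receptor that appears on late precursors, was 29.6 UPM in 36 ND cells and 65.3 in 64 HFD cells (1.13, 0.72 to 1.58), against 0.21 in resting cells. Bcl11a, a zinc finger factor needed for B lineage cells, was 37.6 and 74.1 UPM (0.98, 0.60 to 1.37). Atp1b1 (0.78), a sodium pump subunit, and the kinase Map3k1 (0.75) were higher in resting cells as well (0.70 and 0.43). Iglc2 (60.1 and 130 UPM, 1.11) lay in 22 and 21 cells, and 32.4% of its HFD UMIs were in 1 cell. Its ratio was 0.56 without other-class cells, 0.39 thinned and 0.31 with all cells weighing the same, but 1.59 with at least 3 Mki67 and Top2a UMIs and 1.68 without the cells poor in cell cycle RNA.

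The late pre-B and immature B list was 3853 UPM in ND and 4672 in HFD (log2 ratio 0.28, 0.24 to 0.32), with Ly6d at 429 and 563 UPM and Igkc at 1365 and 1633. The class II list was 1387 and 1644 UPM (0.25, 0.18 to 0.31). Both differences were small beside the range among states. When the cells with the highest 5% of doublet scores were removed, the late pre-B sum had a log2 ratio of 0.09 and the class II sum (-0.24) and Igkc (-0.13) changed direction. The Igkc ratio of 0.26 was 0.05 thinned and 0.09 with all cells weighing the same, but 0.42 with at least 3 Mki67 and Top2a UMIs and 0.44 without the cells poor in cell cycle RNA, where the late pre-B sum was 0.39. Foxo1, which drives Rag1 and Il7r, was 46.0 and 77.1 UPM (0.74, 0.39 to 1.11) with Rag1 at 23.0 and 32.8 (0.51, -0.01 to 1.05). The Rag1 ratio was 1 thinned and 1.07 with all cells weighing the same, but 0.33 with at least 3 Mki67 and Top2a UMIs. The recombination list of 11 genes had 9 tested, 8 of them over 0 (4035 of 6942 among all genes). Its member Prkdc was past 2-fold higher (7.52 and 16.4 UPM, 17 and 39 UMIs), as were 0.418% of all genes.

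The interferon list was 264 UPM in ND and 351 in HFD (log2 ratio 0.41, 0.26 to 0.57), which rested on Ifi27l2a (165 and 270 UPM), since Isg15 was lower in HFD (24.8 and 5.05 UPM) and 7 of 12 genes were too low to test. The lipid and insulin list, of interest for a diet rich in fat, had 13 of 20 genes tested and none past 2-fold (556 and 528 UPM, log2 ratio -0.07, -0.19 to 0.04, and 0.16 thinned). Of the 13, 8 were over and 5 under 0 (4035 over and 2907 under among all 6942 genes), with a median of 0.21. Among all genes 0.418% were past 2-fold higher and 1.45% lower. Scd1, a fatty acid desaturase, was 25.7 and 36.6 UPM (0.51, 0.02 to 1.02). Plin2, a coat protein of lipid droplets, was 61.0 and 35.4 UPM (-0.78, -1.20 to -0.39), and Txnip 134 and 96.0 (-0.48, -0.74 to -0.23). The insulin receptor Insr had 17 and 20 UMIs, too few to compare.

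Other groups of genes were near level. The list of 25 B lineage transcription factors had 24 tested, with 16 over and 8 under 0 (4035 over and 2907 under among all 6942 genes). Its median log2 ratio was 0.15 and that of its sum -0.13. Klf2 was its only member past 2-fold. Among all genes 1.45% were past 2-fold lower and 0.418% higher. The cyclin and kinase list (22 tested) and the p53 and DNA damage list (13 tested) had no gene past 2-fold, and the Myc, growth and glycolysis list had 1 of 17, the amino acid transporter Slc7a5 (23.4 and 10.1 UPM). In the mature B list 1 of 8 was past 2-fold, Fcmr, the IgM Fc receptor, which was higher in HFD with 28 and 85 UMIs in 12 and 25 cells.

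**Figure D5:**
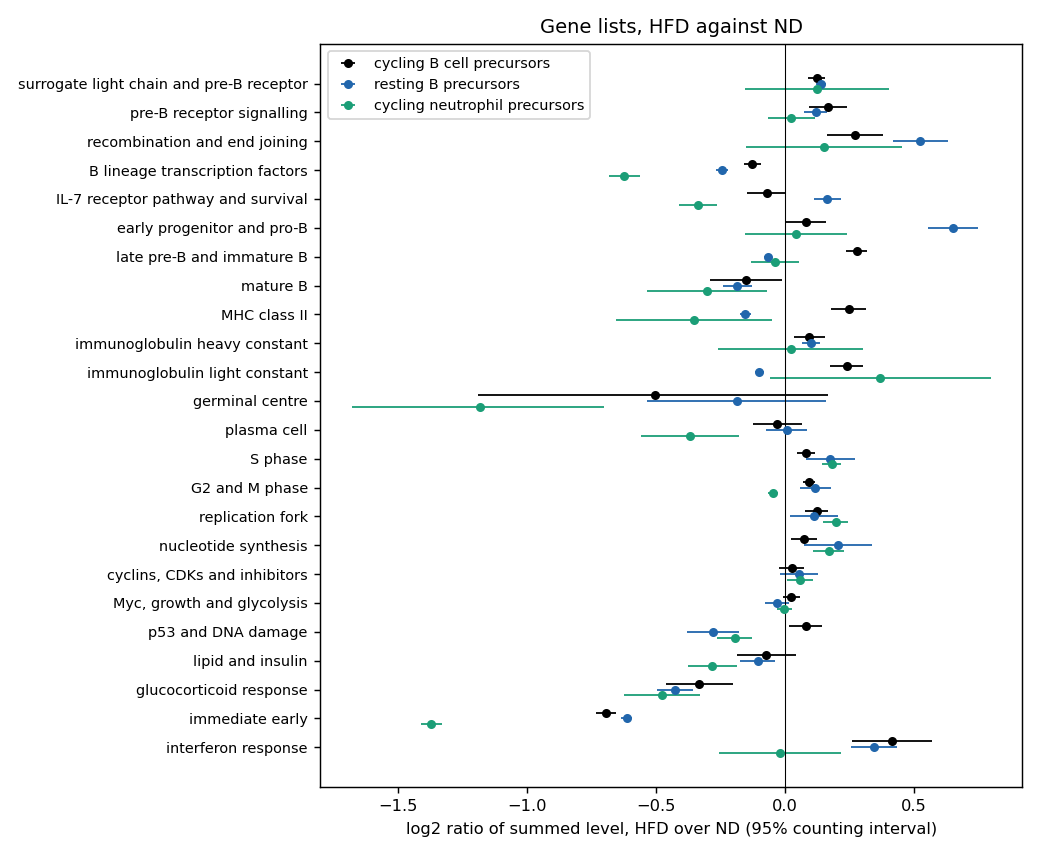
Log2 ratio of the summed level of each gene list, HFD over ND (x axis), in cycling B cell precursors (black), resting B precursors (blue) and cycling neutrophil precursors (green), with 95% counting intervals. The immediate early list lies left of 0 in all 3 cell classes (-0.69, -0.62 and -1.37), and the S phase and G2 and M phase lists of cycling B cell precursors lie at 0.08 (-0.02 with cells thinned or weighted equally) and 0.09.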

How the data were processed

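The authors deposited 1 matrix of UMI counts per diet, made with Cell Ranger 6.0.1 on mm10 as the submitters' processing notes name them, and the deposited counts are whole numbers without normalization. A barcode was kept as a cell if it held over 500 but under 8000 genes and its mitochondrial share was below 20%. The cells and gene lists were chosen with earlier results of these data known. UMIs were summed over cells and divided by their total, so that a level is in UMIs per 1000000. Log2 ratios had 0.5 added to both counts, and a gene entered if its 2 counts together reached 50. A gene counted as past 2-fold by size alone. Shares have exact Clopper-Pearson, levels exact Poisson and ratios exact conditional binomial 95% intervals. For a count of 0 the limit given is 3 counts over the total, which is not an exact interval. With 1 library per diet no test was run. The smallest depth of a cycling precursor was 1721 UMIs.

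Genes named by rule were the 5 markers, members of the lists, the 10 highest and 10 lowest diet ratios among genes with at least 200 UMIs, the 15 highest and 15 lowest ratios against resting cells by the smaller of both libraries, and the 3 Ighv genes with most UMIs. A few genes that the rule names are not reported here. 1 listed gene was absent from the matrix. Vpreb1 and Vpreb2 were aligned from GENCODE M21 transcripts. The calculation of ratios and intervals was checked on simulated counts with known ratios, which is no test between the diets. Scrublet itself marked 9 ND and 23 HFD kept cells (0.149% and 0.370%) and none of the cycling precursors, too few to be taken as working, so doublets were kept, and an alternative removed the highest 5% of scores. The tools were scanpy 1.11.5 with anndata 0.12.19, scipy 1.17.1, numpy 2.4.6, biopython 1.88, pandas 2.3.3 and matplotlib 3.10.9 under Python 3.11.15.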

Additional observations from a re-analysis of the deposited data

Results flagged for a closer look

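Among the 10 genes with the greatest rise and the 10 with the greatest fall in HFD (at least 200 UMIs), 7 had HFD over ND log2 ratios of opposite sign in cycling and resting B precursors, with counting intervals that left out 0 in both; the difference was not tested. Hba-a1 (-6.05 against 1.06), Hbb-bs (-6.04 against 0.77) and Hba-a2 (-5.55 against 0.48) were lower in HFD cycling cells through a few ND cells rich in hemoglobin, of which 1 held 43.7%, 55.9% and 60.6% of the ND UMIs. Prg4 (5.47 against -0.73) and Prtn3 (1.22 against -0.84) were higher in HFD cycling cells, with 87.1% and 89.4% of the HFD UMIs in 1 cell. Iglc2 (1.11 against -0.16) had 32.4% of its HFD UMIs in 1 cell. Bcl11a (0.98 against -0.31) was spread over 47 ND and 67 HFD cells, with at most 10.8% of HFD UMIs in 1 cell, and kept 0.89 without cells that carried RNA of another class.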

How the results depend on the processing

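No paired analysis was possible because the 4 samples of each diet were pooled in 1 library, and leaving out a mouse was not possible either. Genes past 2-fold higher and lower in HFD (29 and 101) were 11 and 20 with cells thinned to 2000 UMIs, 100 and 290 at a minimum of 20 UMIs, 7 and 31 at 200 UMIs, 19 higher with 5 added to each count, 67 higher with all cells weighing the same, and 49 lower without other-class cells, a choice made after seeing the data. Against resting cells (764 and 746) they were 243 and 287 thinned, and 397 and 360 at 200 UMIs. The share of kept cells became 0.888% (ND) and 1.17% (HFD) when all cells were thinned before the rule, and 3.48% and 3.29% with 1 Mki67 or Top2a UMI enough. Thinned, surrogate light chain UMIs were found in 43.2% and 41.3%, and 12.1% and 12.3% were Dntt and 31.1% and 29.0% surrogate light chain cells. The pre-B receptor sum (0.12) was 0.16 thinned, 0.063 without the highest 5% of doublet scores and 0.081 without other-class cells. The S phase sum (0.08) turned to -0.022 thinned and -0.018 with all cells weighing the same, and the immediate early sum (-0.69) was -0.63 with all cells weighing the same and -0.75 without other-class cells. Without other-class cells, which were picked in part by hemoglobin and Mpo UMIs, Hbb-bs was 0.39, Mpo -0.44 and the erythroid sum 0.29. Mpo was -0.064 thinned. The cause was not tested. Of the other settings for single genes, 163 of 200 stayed within the counting interval.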
